A study of Homo sapiens with 6 samples.

Results

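The amyloid precursor protein APP, its paralogs APLP1 and APLP2, and 7 proteins that bind APP were followed in the RNA of HEK293, an established human line derived from embryonic kidney. The genes were listed by name, with earlier results of these data known: APP, APLP1, APLP2, the X11 adaptors APBA1, APBA2 and APBA3, the Fe65 adaptors APBB1 and APBB2, NAE1 and ITM2B. All 10 were found among the 60675 gene rows of the count table. The study compared 3 control libraries, whose genotype is given as wild type, with 3 libraries labelled as MOCS2 RNAi knockdown. Both groups were grown in high-glucose medium with serum and the selection drug Geneticin, and total RNA was sequenced from stranded libraries after ribosomal RNA removal. The labels name neither the silencing construct nor a control construct, and they do not say whether the replicates were separate cultures. The p-values therefore measure the spread between these libraries, which may be technical.

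APP is a single-pass membrane protein whose extracellular part is shed by secretases, and whose remaining stub is cut within the membrane to release amyloid-beta and a cytoplasmic fragment. APLP1 and APLP2 share its overall architecture and are cut by the same classes of enzyme, but they lack the amyloid-beta sequence. The short cytoplasmic tail carries a tyrosine-based sorting motif, known as YENPTY, which is bound by the phosphotyrosine-binding domains of the X11 and Fe65 adaptors and links APP to traffic and to nuclear proteins. NAE1, also called APP-BP1, binds the tail as well and is a subunit of the enzyme that activates the ubiquitin-like protein NEDD8. ITM2B, also called BRI2, differs from the other binders in that it is a membrane protein that meets APP through its membrane-proximal and luminal parts, and is not a cytoplasmic adaptor.

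The tail motif is what joins the first 3 genes to the adaptors, so its coding sequence is shown for each of them. The stretches come from the GENCODE release 29 transcripts (GRCh38), on the coding strand from 5′ to 3′. Capitals mark the 18 bases that encode the YENPTY motif, and lower case marks the 15 coding bases on either side.
APP: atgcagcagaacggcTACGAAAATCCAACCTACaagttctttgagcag
APLP1: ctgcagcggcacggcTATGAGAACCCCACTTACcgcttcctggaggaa
APLP2: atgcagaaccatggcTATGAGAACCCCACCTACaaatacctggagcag
The APP stretch lies in exon 18 of its transcript (chr21:25881682-25881729, minus strand). The APLP1 stretch lies in exon 17 (chr19:35879385-35879432, plus strand) and the APLP2 stretch in exon 18 (chr11:130143389-130143436, plus strand). All 3 encode the same motif with different codons. Of the 18 motif bases, APP shared 13 with APLP1 and 14 with APLP2, and APLP1 shared 17 with APLP2. Over the whole 48 bases, 68.8% matched between APP and APLP1 and 75.0% in each of the other pairs.

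Between 17958632 and 22171106 reads per library were assigned to genes. MOCS2, the targeted gene, stood at 57.8, 66.5 and 65.6 CPM (counts scaled to library size with TMM factors) in control replicates 1, 2 and 3, while the libraries labelled knockdown 1, 2 and 3 had 69.8, 58.9 and 59.9 CPM. These ranges overlapped and MOCS2 RNA was not lower (log2 fold change -0.01, 95% interval -0.33 to 0.31, edgeR adjusted p = 0.976), so the target's RNA, counted over the whole gene, goes against the label. The separate transcripts of MOCS2 and its protein were not examined. The second group is therefore called the knockdown-labelled libraries, and knockdown 1, 2 and 3 name its replicates by their labels only. Knockdown 2 had 37.5% of its uniquely aligned reads outside genes, against 21.5% to 25.0% in the other 5 libraries. The neural and mesenchymal genes that HEK293 expresses were present, with NEFL at 160 and 125 CPM, VIM at 805 and 1277 CPM and CDH2 at 242 and 223 CPM in controls and in the knockdown-labelled libraries, while the kidney factor PAX2 stood at only 1.44 and 1.25 CPM. Of the 8 markers on that list 4 had a negative log2 fold change, with LHX1 at 11.2 and 6.54 CPM and INA at 38.1 and 72.9 CPM, and DESeq2 called VIM and INA higher. None passed edgeR. Summed over each list, 6 fibroblast markers reached 18.8 to 29.2 CPM in controls and 10.7 to 18.2 CPM in the knockdown-labelled libraries, 4 endothelial markers 3.24 to 4.38 and 1.58 to 3.51 CPM, and 5 blood cell markers 0.943 to 2.20 and 1.53 to 3.56 CPM. The keratinocyte sum of 24.2 to 25.8 and 26.8 to 31.3 CPM was nearly all KRT10. Single genes made most of the drop in the lower sums as well. LUM went from 11.9 to 1.90 CPM (log2 fold change -2.64, called lower by DESeq2 and not by edgeR) beside positive values for COL1A1 (0.19) and COL3A1 (0.29). DCN was also negative (-0.26), with means of 0.82 CPM in controls and 0.68 CPM in the knockdown-labelled libraries. KDR had -1.35 beside positive values for PECAM1 (0.11) and VWF (0.32). Whether these shifts had a part in the values below was not tested.

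None of the 10 genes passed the test, which was edgeR's quasi-likelihood test over 18267 genes with an adjusted p threshold of 0.05. The share of all tested genes that passed was likewise 0%. At an unadjusted p of 0.05 the test had 4 of the 10 genes lower and 1 higher, against 10.6% and 9.93% of all tested genes (20.5% in both directions). This number depended on single libraries. Counted in either direction, it was 2, 1 and 1 of the 10 without control 1, 2 and 3. Without knockdown 1, 2 and 3 it was 1, 6 and 6. The share of all genes at that unadjusted p was not counted with a library left out. DESeq2 called 1 of the 10, NAE1, beside 6.27% of all genes, and limma voom called 0 of the 10 and 0% of all genes. In 6 of the 10 all 3 knockdown-labelled libraries lay below all 3 controls, and in 1 they lay above, against 14.3% and 12.5% of all tested genes (26.8% in both directions). The log2 fold change was negative in 8 of the 10, where 48.2% of all tested genes were negative. Its median was -0.30 over the 10 genes and 0.02 over all genes. All 10 had enough counts to be tested, the smallest being 29 reads for APBA1 in knockdown 1. In bulk RNA, fewer cells that express a gene and less RNA per cell cannot be told apart.

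To order the genes by level, CPM was divided by the length of all annotated exons of a gene. On this scale APP was the highest of the 10 in controls, at 91.7 ± 3.99 CPM per kilobase (SD, n = 3), above 98% of the tested genes. APLP2 followed at 57.0 ± 5.21, NAE1 at 35.2 ± 1.37, ITM2B at 15.97 ± 1.30, APBB1 at 9.44 ± 0.485 and APBA2 at 5.44 ± 0.239 CPM per kilobase. These 6 neighbours did not overlap in controls. APBA3 at 2.89 ± 0.418, APLP1 at 2.85 ± 0.170 and APBB2 at 2.66 ± 0.362 CPM per kilobase overlapped with their neighbours and could not be ordered. APBA1 was lowest, at 0.224 ± 0.0527 CPM per kilobase, below all but 7.1% of tested genes. The family was thus represented mainly by APP and APLP2, with APLP1, which is best known from neurons, at a far lower level, and the X11 class by APBA2 and APBA3 rather than APBA1. In the knockdown-labelled libraries the first 7 kept this order, although APBB1 and APBA2 then overlapped, and APLP1 and APBB2 changed places within overlapping ranges. The order depends on the length used: over the median length of a gene's transcripts, APLP2 stood at 729.8 and APP at 313.9 CPM per kilobase in controls, and APBB2, at 54.8, stood above APBB1.

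**Figure D1:**
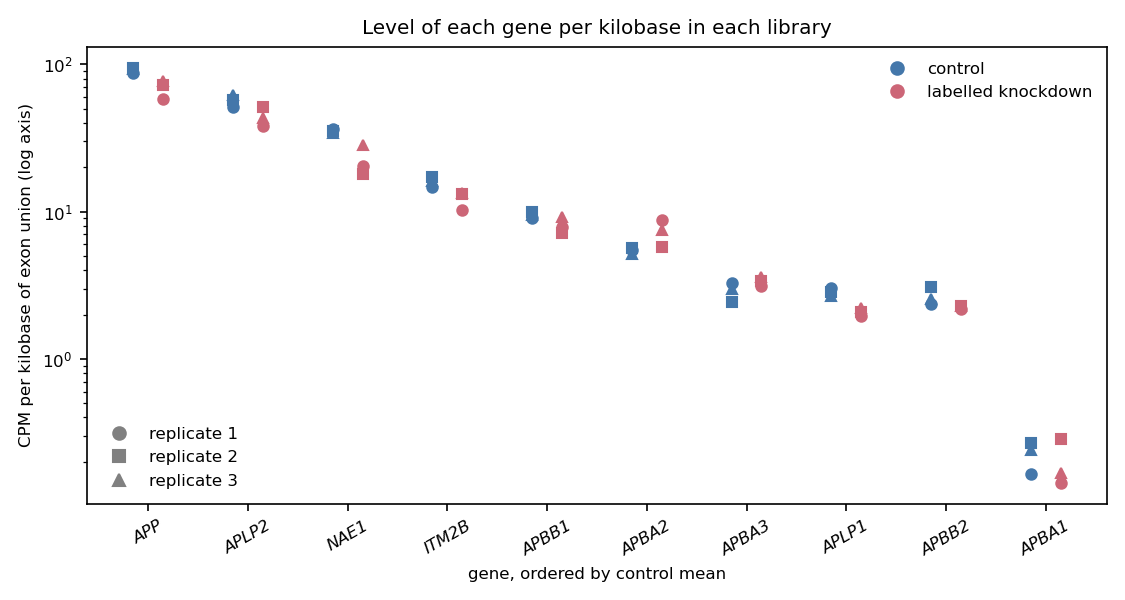
Level of each gene in CPM per kilobase of its exons (log axis) in each of the 6 libraries, with genes ordered by the control mean, colours for the groups and marker shapes for the replicate. APP and APLP2 are at the top, APBA3, APLP1 and APBB2 lie level in controls at 2.89, 2.85 and 2.66, and APBA1 lies far below the rest at 0.224.

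APP itself (ENSG00000142192, chromosome 21, 25880550 to 26171128, minus strand) was measured at 551, 598.5 and 589.0 CPM in control replicates 1, 2 and 3. In the knockdown-labelled libraries it stood at 369, 457 and 485.5 CPM. All 3 of these lay below all 3 controls, and knockdown 1 lay lowest. The means differed by 24.5% of the control level, more than the SD of 25.2 CPM among controls and of 60.7 CPM among the knockdown-labelled libraries. The log2 fold change was -0.41 with a standard error of 0.16 and a 95% interval from -0.76 to -0.05, and the gene did not pass the test (edgeR adjusted p = 0.192). Of all tested genes, 16.6% had a more negative log2 fold change than APP.

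APLP2 (ENSG00000084234, chromosome 11, 130068147 to 130144811, plus strand), the paralog expressed in most tissues, stood at 385.5, 428 and 463 CPM in controls and at 286, 384 and 322 CPM in the knockdown-labelled libraries. The groups were separated by a gap of about 1 CPM, between knockdown 2 and control 1. Its log2 fold change was -0.36 with a standard error of 0.16 (95% interval -0.73 to 0.0016, edgeR adjusted p = 0.245). APLP1 (ENSG00000105290, chromosome 19, 35867899 to 35879791, plus strand) stood at 11.1, 10.4 and 9.82 CPM in controls and at 7.12, 7.60 and 8.07 CPM in the knockdown-labelled libraries. Both groups were tight, with an SD of 0.620 CPM in controls and 0.474 CPM in the others, and they did not overlap. The log2 fold change of APLP1 was -0.46 with a standard error of 0.20 (95% interval -0.89 to -0.02, edgeR adjusted p = 0.224). All 3 paralogs thus had negative estimates between -0.36 and -0.46, from levels that differ widely. The ratio of APP to APLP2 counts was 1.43, 1.40 and 1.27 in controls and 1.29, 1.19 and 1.51 in the knockdown-labelled libraries, so the balance of the pair overlapped between groups. Of the exon bases of APLP1, 6.35% overlap NPHS1 on the opposite strand, and no source used here states whether the counting used strand. NPHS1 had 69 reads in all 6 libraries together.

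**Figure D2:**
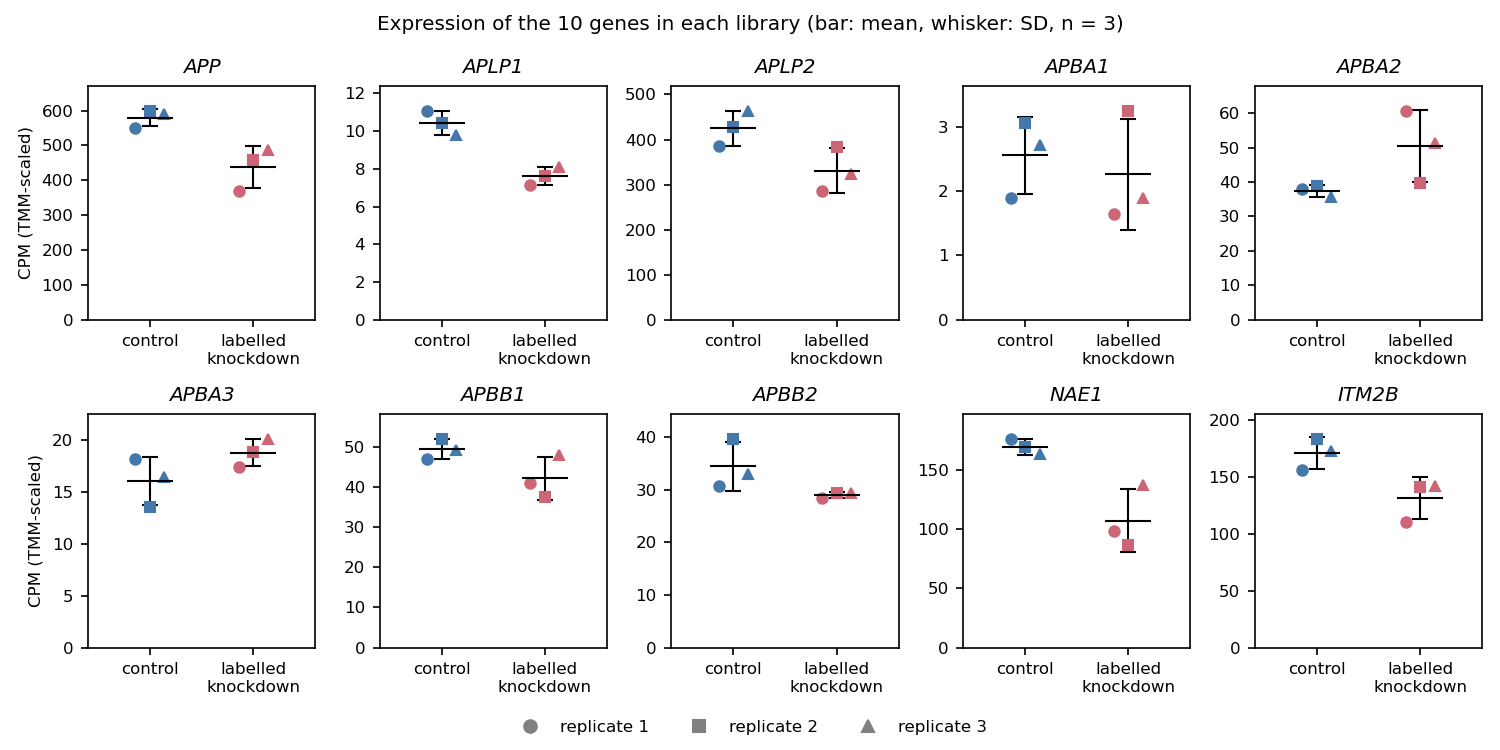
CPM of each of the 10 genes by group, each panel with its own axis from 0. Markers are libraries (shape gives the replicate), bars are means and whiskers SDs over 3 libraries. For APP, APLP1, APLP2, APBB2, NAE1 and ITM2B all knockdown-labelled libraries lie below all controls, and for APBA2 all lie above.

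The X11 adaptors, also called Mints, couple the APP tail to a pair of PDZ domains and so to synaptic and secretory proteins. Their estimates had different signs, positive for APBA2 and APBA3 and negative for APBA1. APBA2 (ENSG00000034053, chromosome 15, 28884483 to 29118315, plus strand) stood at 37.9, 38.7 and 35.5 CPM in controls and at 60.6, 39.7 and 51.4 CPM in the knockdown-labelled libraries. All 3 of the latter lay above the controls, but knockdown 2 exceeded control 2 by only about 1 CPM. The log2 fold change was 0.44 with a standard error of 0.17 (95% interval 0.05 to 0.82, edgeR adjusted p = 0.196). It was 0.28 without knockdown 1, a change of over 1.5 times, and 0.57 without knockdown 2.

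APBA3 (ENSG00000011132, chromosome 19, 3750819 to 3761699, minus strand), the X11 protein found outside the nervous system, stood at 18.2, 13.6 and 16.5 CPM in controls and at 17.4, 18.8 and 20.1 CPM in the knockdown-labelled libraries. The groups overlapped, and the log2 fold change of 0.23 had a 95% interval from -0.17 to 0.62 (edgeR adjusted p = 0.498). Without control 2, which was the lowest library, it was 0.11. Part of the exon sequence of APBA3 is shared with AC005954.2 on the opposite strand (5.60%) and AC005954.1 on the same strand (2.32%), which had 29 and 27 reads in all. APBA1 (ENSG00000107282, chromosome 9, 69427530 to 69672306, minus strand), a neuronal X11 protein, had 42, 68 and 54 reads in controls and 29, 61 and 36 reads in the knockdown-labelled libraries. In CPM these were 1.89, 3.05 and 2.72 against 1.64, 3.24 and 1.90, which overlap fully, and the 95% interval of the log2 fold change ran from -0.93 to 0.59 (edgeR adjusted p = 0.808). That interval, which reflects both the low counts and the spread between libraries, holds differences of either sign. Its estimate of -0.17 was -0.53 without knockdown 2, -0.36 without control 1 and 0.0057 without knockdown 1.

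The Fe65 adaptors bind the same tail motif and carry a WW domain, and the APP fragment released by gamma-secretase can enter complexes with them in the nucleus. APBB1 (ENSG00000166313, chromosome 11, 6395124 to 6419414, minus strand), Fe65 itself, stood at 47.0, 52.1 and 49.4 CPM in controls and at 41.0, 37.5 and 48.2 CPM in the knockdown-labelled libraries. Knockdown 3 lay within the control range and knockdown 2 lowest. The log2 fold change was -0.23 with a standard error of 0.15 (95% interval -0.56 to 0.10, edgeR adjusted p = 0.409). APBB2 (ENSG00000163697, chromosome 4, 40810027 to 41216714, minus strand), the Fe65-like protein, stood at 30.6, 39.7 and 33.1 CPM in controls and at 28.4, 29.4 and 29.4 CPM in the knockdown-labelled libraries. Here the controls were the more spread group, with an SD of 4.68 CPM against 0.563 CPM, and the groups did not overlap. The 95% interval of its log2 fold change ran from -0.59 to 0.10 (edgeR adjusted p = 0.395), and without control 2, the highest library, the estimate dropped in size from -0.245 to -0.14. The ratio of APBB2 to APBB1 counts had means of 0.694 ± 0.0589 in controls and 0.696 ± 0.0861 in the knockdown-labelled libraries (SD, n = 3).

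NAE1 had the most negative log2 fold change of the 10 genes. It forms, with UBA3, the enzyme that activates NEDD8, the modifier that switches on cullin ubiquitin ligases. NAE1 (ENSG00000159593, chromosome 16, 66802875 to 66873256, minus strand) stood at 176, 169 and 163 CPM in controls and at 98.6, 86.2 and 136.8 CPM in the knockdown-labelled libraries. The controls lay close together, with an SD of 6.58 CPM, and knockdown 3 lay nearer to them than knockdown 1 and 2 did. The mean was lower by 36.8% of the control level, and the log2 fold change was -0.66 with a standard error of 0.18 (95% interval -1.06 to -0.26). It did not pass edgeR's test over all genes (adjusted p = 0.109, unadjusted p = 0.00408), and 7.61% of all tested genes had a more negative log2 fold change. DESeq2 gave an adjusted p of 0.0267, and edgeR gave 0.0216 with no filter on low counts and 0.00529 without knockdown 3. Under these 3 settings 6.27%, 3.64% and 14.8% of all tested genes were called. Over the other alternatives the adjusted p ran up to 0.418, without control 2. In knockdown 2, which had both the lowest NAE1 value and the 37.5% of reads outside genes, the part of that share was not tested. Without that library the log2 fold change was -0.53 (edgeR adjusted p = 0.138).

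Among 20 further genes of NEDD8 conjugation, 0 passed edgeR in either direction, and at an unadjusted p of 0.05 the test had 1 lower and 0 higher, against 10.6% and 9.93% of all tested genes. DESeq2 called that 1 gene, where it called 6.27% of all genes. The list had 16 negative log2 fold changes and a median of -0.06, against 0.02 over all genes. Its most abundant members were CAND1, which exchanges cullin substrate receptors, at 412.5 ± 46.7 CPM in controls and 404.7 ± 78.5 CPM in the knockdown-labelled libraries (SD, n = 3), and CUL4B, a cullin, at 202 ± 8.74 and 189 ± 30.3 CPM. UBA3 and SENP8 were singled out after their values were seen. UBA3, the catalytic partner of NAE1, stood at 75.6, 75.8 and 76.8 CPM in controls and at 49.2, 41.9 and 76.2 CPM in the knockdown-labelled libraries. As for NAE1, knockdown 1 and 2 lay low and knockdown 3 lay highest of its group, for UBA3 within the control range (log2 fold change -0.45, edgeR adjusted p = 0.252). SENP8, the NEDD8 protease, was the 1 gene of the list with a low unadjusted p, at 7.15, 7.32 and 7.95 CPM in controls and 1.87, 1.91 and 5.17 CPM in the knockdown-labelled libraries (log2 fold change -1.32, 95% interval -2.15 to -0.49, edgeR adjusted p = 0.112). The ratio of NAE1 to UBA3 counts was 2.33, 2.23 and 2.12 in controls and 2.00, 2.06 and 1.79 in the knockdown-labelled libraries, a narrow gap between groups that do not overlap.

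ITM2B (ENSG00000136156, chromosome 13, 48232612 to 48270357, plus strand) encodes a membrane protein with a BRICHOS domain that is trimmed by furin and ADAM10, and whose mutations cause familial British and Danish dementia. It stood at 156, 184 and 173 CPM in controls and at 110, 142 and 142 CPM in the knockdown-labelled libraries. The groups did not overlap, and knockdown 1 lay lowest. The log2 fold change was -0.38 with a standard error of 0.16 (95% interval -0.73 to -0.03, edgeR adjusted p = 0.21). Of 6 genes listed as its paralogs and processing enzymes, 5 could be tested, 0 passed edgeR in either direction (0 at an unadjusted p of 0.05 and 0 by DESeq2), 3 were negative and the median was -0.02. The paralog ITM2C had means of 153 ± 18.6 CPM in controls and 125.5 ± 10.4 CPM in the knockdown-labelled libraries (log2 fold change -0.29, edgeR adjusted p = 0.309), and ITM2A, at 0.273 ± 0.174 CPM in controls, was too low to test. ADAM10, which also acts as the alpha-secretase of APP, had means of 114 ± 8.03 and 112 ± 15.3 CPM (log2 fold change -0.02, edgeR adjusted p = 0.947).

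**Figure D3:**
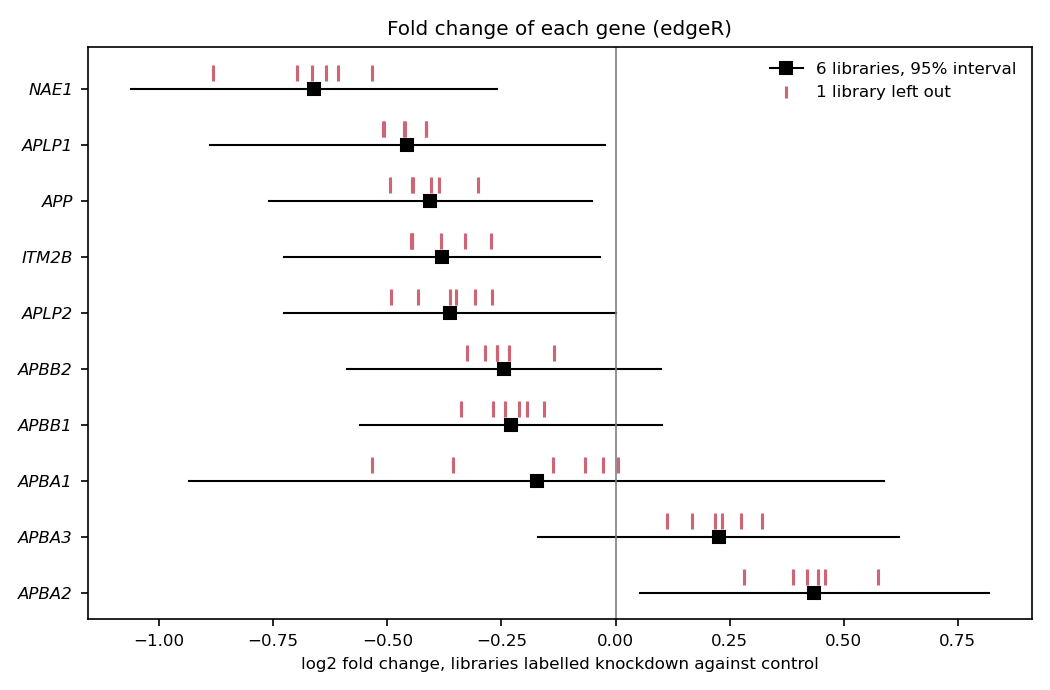
Log2 fold change of the knockdown-labelled libraries against control for each gene (squares) with its 95% interval (lines), and the estimate with each library left out in turn (red ticks). NAE1 lies farthest below 0 at -0.66, APBA2 farthest above at 0.44, and the ticks of APBA1 run from -0.53 to 0.0057.

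Seen by library, the 10 genes did not all deviate together, although several shared a pattern. Knockdown 1 had the lowest value of its group in APP (-0.65 on the log2 scale against the control mean), APLP1 (-0.54), APLP2 (-0.57), APBA1 (-0.58), APBA3 (0.13), APBB2 (-0.27) and ITM2B (-0.63), and the highest in APBA2 (0.70). Knockdown 2 was lowest in NAE1 (-0.97) and APBB1 (-0.40), and there APLP2 (-0.14) and APBA2 (0.09) lay close to the controls. Knockdown 3 deviated least in APP (-0.25), APLP1 (-0.36), NAE1 (-0.31), APBB1 (-0.04), APBB2 (-0.22) and ITM2B (-0.26). The median deviation of all tested genes lay between -0.0034 and 0.011 in these 3 libraries. On the log2 CPM scale the SD among the knockdown-labelled libraries exceeded that among controls in 8 of the 10 genes, most in NAE1 (0.343 against 0.056), and was smaller in APBA3 (0.103 against 0.213) and APBB2 (0.028 against 0.191). Over all tested genes the median SD was 0.311 in the knockdown-labelled libraries and 0.161 in controls.

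**Figure D4:**
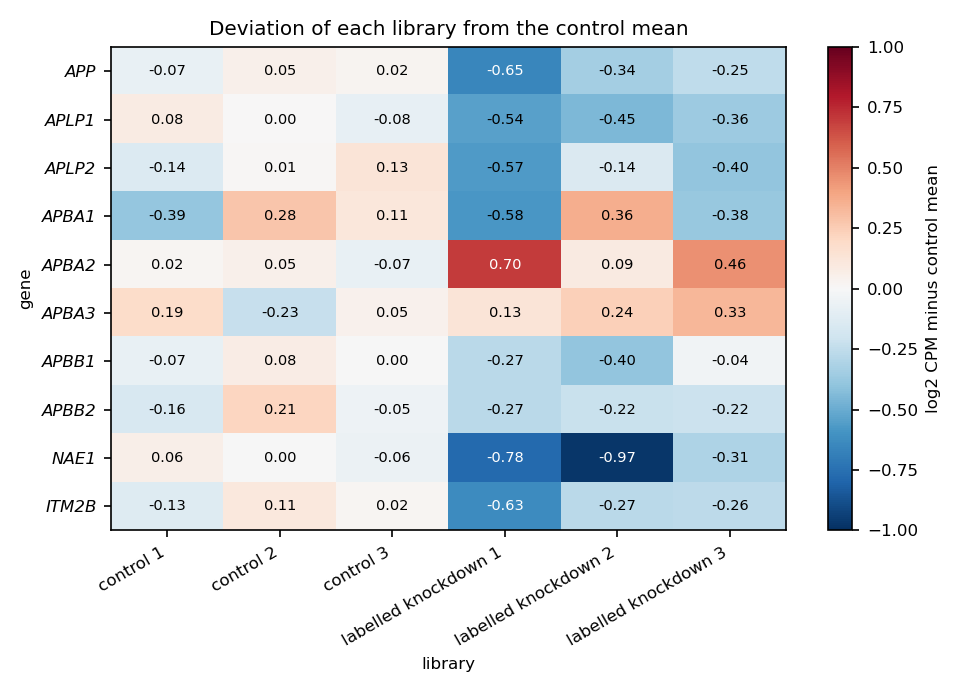
Deviation of each library (columns) from the control mean of each gene (rows), as the difference in log2 CPM, with blue below and red above. Knockdown 1 is the lowest library in APP, APLP1, APLP2, APBA1, APBB2 and ITM2B, knockdown 2 in NAE1 and APBB1, and APBA2 is above the control mean in all 3 at 0.70, 0.09 and 0.46.

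The likeness of patterns was measured as the root mean square distance between 2 genes' log2 CPM over the 6 libraries, each centred on its own mean. Among 10107 protein-coding genes with a mean of at least 10 CPM, the 3 nearest to APP were DEAF1, a transcription factor (distance 0.03), ITM2B (0.04) and SLC35B3, a Golgi transporter of the sulfate donor PAPS (0.04). DEAF1 had means of 34.1 ± 1.22 CPM in controls and 25.5 ± 4.06 CPM in the knockdown-labelled libraries (log2 fold change -0.42, edgeR adjusted p = 0.192), and SLC35B3 24.5 ± 1.92 and 18.2 ± 2.87 CPM (-0.42, adjusted p = 0.213). Of the other members, APLP1 lay at 0.11 and APLP2 at 0.11, with 2.0% and 2.3% of those genes nearer to APP, and APBB1 and APBB2 at 0.16 each. NAE1 lay at 0.24, with 24.7% of genes nearer, APBA1 at 0.32 and APBA3 at 0.36. APBA2 was the farthest member at 0.50, with 88.7% of genes nearer to APP. These distances rest on 6 libraries and describe this data set.

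Other proteins that act on APP or on its binders were examined in the same fit, and 0 of them passed edgeR in either direction. DESeq2 called 2 of them, the gamma-secretase subunits APH1B and PSENEN, both lower, where it called 6.27% of all genes. Genes with an unadjusted edgeR p under 0.05 (20.5% of all tested genes had one) are named here because their values were seen: APBB3 higher among the tail binders, LIN7B lower among the X11 partners, and TSHZ3 higher and LRP8 lower among the Fe65 partners. Of 14 other binders of the APP tail, 6 had a negative log2 fold change and the median was 0.11. The most abundant were GRB2, a signalling adaptor, at 145 ± 1.52 CPM in controls and 135 ± 16.8 CPM in the knockdown-labelled libraries, and APPBP2, a transport protein, at 137 ± 10.6 and 141 ± 17.97 CPM. APBB3, the Fe65 relative that is not among the 10 genes, stood at 8.94, 9.12 and 9.01 CPM in controls and at 11.7, 14.8 and 10.7 CPM in the knockdown-labelled libraries, above all controls, where APBB1 and APBB2 had lower means than controls (log2 fold change of APBB3 0.46, edgeR adjusted p = 0.233). Of 10 partners of the X11 adaptors, 5 were negative with a median of -0.03, and the most abundant were the scaffold CASK (139 ± 9.06 and 129 ± 2.28 CPM) and the hydroxylase HIF1AN (134 ± 2.45 and 147 ± 14.7 CPM). Of 8 partners of Fe65, 3 were negative with a median of 0.10. Here the most abundant were SET, a histone chaperone (578 ± 44.6 and 685.0 ± 116 CPM), and ENAH, an actin regulator (499.9 ± 12.9 and 659.8 ± 148 CPM).

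Among 10 secretase genes, 6 had a negative log2 fold change with a median of -0.07, and at an unadjusted p of 0.05 the test had 3 lower (APH1B, PSENEN and NCSTN, all subunits of gamma-secretase), against 10.6% of all tested genes. APH1A, a gamma-secretase subunit, was the most abundant and had means of 129 ± 6.02 CPM in controls and 108 ± 5.21 CPM in the knockdown-labelled libraries (log2 fold change -0.26, edgeR adjusted p = 0.3). Of 14 sorting receptors and retromer subunits, which carry APP between the cell surface, endosomes and Golgi, 12 could be tested. Of these, 8 were negative, the median was -0.22, and at an unadjusted p of 0.05 the test had 4 lower (SORL1, SORT1, VPS35 and VLDLR) and 1 higher (SORCS1), against 10.6% and 9.93% of all tested genes. The most abundant were VPS35, the core retromer subunit, at 230 ± 17.4 CPM in controls and 158 ± 28.2 CPM in the knockdown-labelled libraries (log2 fold change -0.54, edgeR adjusted p = 0.127), and SORT1, the sorting receptor sortilin, at 214 ± 18.4 and 149 ± 48.8 CPM (-0.52, adjusted p = 0.214). Both passed without knockdown 3, with edgeR adjusted p = 0.0178 and 0.00993, when 14.8% of all genes also did. SORT1 was 204 CPM in knockdown 3, within the control range, and 132 and 111 CPM in knockdown 1 and 2.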

How the data were processed

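The deposited file is a table of the authors' raw read counts by Ensembl gene in 6 libraries, as whole numbers with no normalization. The submitters' processing notes name bcl2fastq 2.18, TopHat2 2.0.13, HTSeq and the build hg38, while the annotation release and strand setting are not stated in the sources used. The table has 60675 genes and 5 special rows, which entered neither library sizes nor tests (reads outside genes were 21.5% to 37.5% and ambiguous reads 2.87% to 3.70% of uniquely aligned reads). GENCODE 29 matched 57055 identifiers, all 10 genes studied and all 110 other list entries.

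Sample titles give the groups. The test was edgeR 4.0.16 (R 4.3.3), with TMM factors, filterByExpr, a two-sided quasi-likelihood F test between the 2 groups, and Benjamini-Hochberg adjustment over 18267 genes, with a threshold of 0.05. Standard errors were derived from the F statistic. Log2 CPM used a prior count of 2. Every pair of libraries within a group differed beyond sampling noise, with 10.0 to 63.7 chi-square units per degree of freedom. The fit was also run on simulated data, with changes larger than the estimate of any of the 10 genes and the same spread in both groups. The median SD here was 0.161 in controls and 0.311 in the knockdown-labelled libraries. That run therefore does not show how the test performs on differences and spreads like those here.

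The 10 genes and the lists were chosen with earlier results of these data known. Named genes were the 10, MOCS2, the 3 genes nearest to APP and, per list, members past the threshold or else the 2 most abundant in controls. Alternatives were DESeq2 1.42.0 and its size factors, upper-quartile factors, limma 3.58.1 voom, a filter of at least 1 CPM in 3 libraries or none, a replicate block and leaving out each library. Counts of genes without overlap, with each library left out, were added after seeing the data. Protein sequences were not used here. Results of some list members are not reported here.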

Additional observations from a re-analysis of the deposited data

How the results depend on the processing

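Over the 13 alternatives, 9 of the 10 genes kept their sign. APBA1 did not, with leave-one-out values from -0.533 to 0.0057. Genes called higher and lower over the whole table numbered 0 and 0, but 559 and 586 by DESeq2, 694 and 880 with no filter (where the median of all genes was 0.119), 6 and 13 with the replicate block, and 0 to 1232 and 0 to 1583 with 1 library left out, the highest without knockdown 3. The 4 calls without control 3 were all lower. Of the 10 genes, 1 (NAE1) was called lower by DESeq2 (log2 fold change -0.66), with no filter (-0.68) and without knockdown 3. Leaving out 1 library gave 0 to 1 lower and 0 higher, and values of NAE1 from -0.881 to -0.533. The cause was not tested.

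Leave-one-out values of other named genes changed sign in ADAM10 (-0.146 to 0.0411), APPBP2 (-0.0635 to 0.115), CAND1 (-0.138 to 0.115), CUL4B (-0.208 to 0.0156) and MOCS2 (-0.0941 to 0.0267, and 0.0095 with upper-quartile factors). The 10 genes held 6 to 7 without overlap below the controls and 1 to 2 above when 1 library was left out, against 15.2% to 23.0% of all genes above and 16.8% to 25.0% below. Same-numbered libraries did not deviate together (r = 0.114, -0.167 and -0.125 for numbers 1, 2 and 3), so the replicate block pairs them by number only, and it called 0 of the 10 genes. Depth limits APBA1 most, with 29 to 68 reads per library.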
